A study of Mus musculus with 2 samples.

Results

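The Slc25 genes encode the mitochondrial carrier family, and 42 of them were taken from the FPKM tables of a mouse liver study as all gene names made of Slc25a and a number, except 2 names that are not analysed here. Of these 42, 32 averaged 1 FPKM or more (mapped fragments corrected for transcript length and library size) and enter the counts below, out of 10544 genes kept on the same filter. The NP library came from livers of CD-1 mice, an outbred strain, that received titanium dioxide nanoparticles by mouth at 50 mg per kg body weight per day. The Control library came from CD-1 mice given phosphate-buffered saline in the same volume. The labels give neither age, sex and length of dosing nor how many animals went into each library. With 1 library per group no test was possible, and a difference is one between 2 libraries, which cannot be told apart from a difference between animals. The interval beside a value is the 95% interval that Cufflinks gives within a library, combined over the rows of a gene, and it holds no spread between animals.

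Mitochondrial carriers sit mostly in the inner mitochondrial membrane, which is otherwise closed to charged metabolites, and exchange or import substrates between the cytosol and the matrix. They are built from a repeated module of paired membrane helices and typically carry a small anion, nucleotide, amino acid or cofactor. In hepatocytes they supply the matrix with phosphate, ADP and cofactors, and link it to fatty acid oxidation, gluconeogenesis, lipogenesis and nitrogen disposal in the cytosol.

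The promoters of 3 members are shown to identify the genes and starts described below, and no motif was tested against a level: Slc25a47 had the highest level in the family, Slc25a34 had the highest ratio, and Slc25a25 was measured as transcripts from separate starts. Each line holds the 250 bases before the start of the gene in RefSeq, build GRCm38.p6, 5′ to 3′ on the gene's strand, while the FPKM tables use mm9. Capitals mark every match to CCAAT or to the cAMP response element TGACGTCA, on either strand. Slc25a47 lies on the plus strand at chr12:108850879-108851128, the long Slc25a25 transcript on the minus strand at chr2:32451471-32451720, the short Slc25a25 transcript on the minus strand at chr2:32424067-32424316 and Slc25a34 on the minus strand at chr4:141623835-141624084.
Slc25a47: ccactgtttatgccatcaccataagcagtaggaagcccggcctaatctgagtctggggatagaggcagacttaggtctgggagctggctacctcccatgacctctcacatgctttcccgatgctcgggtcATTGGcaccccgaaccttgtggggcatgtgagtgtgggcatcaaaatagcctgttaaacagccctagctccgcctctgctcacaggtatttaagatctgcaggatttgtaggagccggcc
Slc25a25, long transcript: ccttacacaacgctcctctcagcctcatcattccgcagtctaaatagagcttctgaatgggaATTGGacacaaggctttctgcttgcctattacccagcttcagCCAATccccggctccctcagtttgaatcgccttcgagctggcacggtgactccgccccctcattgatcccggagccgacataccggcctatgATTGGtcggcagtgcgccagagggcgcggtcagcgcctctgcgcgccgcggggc
Slc25a25, short transcript: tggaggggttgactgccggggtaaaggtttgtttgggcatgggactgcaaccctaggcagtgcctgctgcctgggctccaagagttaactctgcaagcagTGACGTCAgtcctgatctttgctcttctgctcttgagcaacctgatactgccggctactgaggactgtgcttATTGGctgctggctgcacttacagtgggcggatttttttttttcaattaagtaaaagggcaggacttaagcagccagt
Slc25a34: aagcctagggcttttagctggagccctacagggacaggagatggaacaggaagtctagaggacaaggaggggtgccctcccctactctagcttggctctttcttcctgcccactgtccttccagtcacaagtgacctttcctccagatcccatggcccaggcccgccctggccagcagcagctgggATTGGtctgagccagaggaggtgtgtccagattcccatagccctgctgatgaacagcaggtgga

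Of the 32 members, 26 were found in the RefSeq promoter table, with 34 promoters. A CCAAT match was held by 18 of these 34 promoters (52.9%), against 33.8% of all 32851 promoters of that length. These 18 belong to 15 members, and 5 of the 26 members have more than 1 promoter. The members were filtered by expression and the promoters compared with were not, and no share over expressed genes was counted for any motif or for GC content. The cAMP response element TGACGTCA was held by 1 member promoter, that of the short Slc25a25 transcript, against 1.55% of all promoters. The ER stress response element was in 0 of the 34, against 0.113% of all promoters, which says only that its letters are not in these windows. An E-box (CACGTG) was in 4 of the 34 (11.8%), in promoters of Slc25a1, Slc25a14 and Slc25a33, against 6.02% of all. TATAAA was held by 1 member promoter, of Slc25a21, against 12.4% of all. The NRF1 site was held by 1, of Slc25a3, against 3.74%, and the estrogen-related receptor element TCAAGGTCA by 0, against 0.387%. All were searched on both strands, and a match is a description of letters, not a site in use. Median GC content of the member windows was 56.2%, against 52.4% over all promoters.

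Summed over all rows of the 32 members, coding and other, the family stood at 1780.0 FPKM in NP and 1780.6 FPKM in Control. The family was dominated by few genes in both libraries. Its 5 highest members held 60.5% of the sum in NP and 60.0% in Control, and its 10 highest held 85.4% and 83.8%. In each library 7 members were at 100 FPKM or more, 7 at 20 to 100 FPKM and 18 below 20 FPKM.

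**Figure D1:**
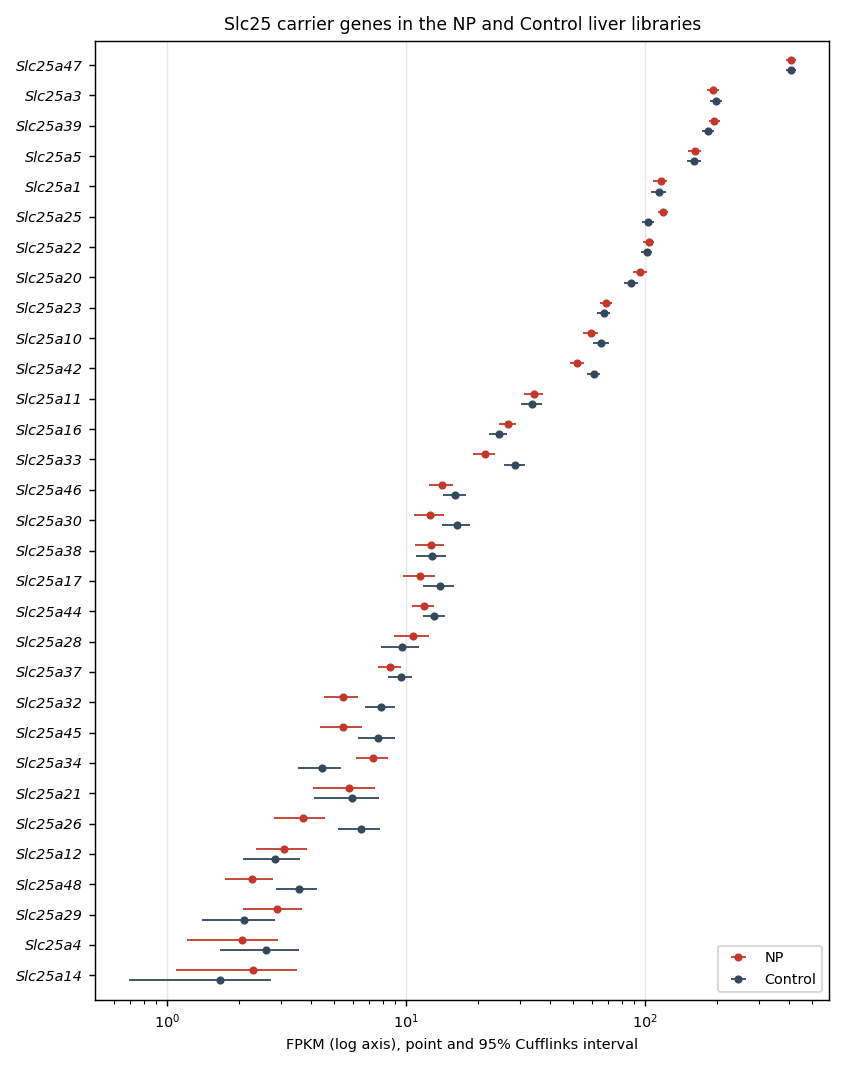
FPKM of 31 of the 32 Slc25 members on a log axis, each with the NP value above the Control value; points are the deposited values summed over rows and bars the 95% Cufflinks interval. Slc25a47 stands alone at the top, at 408.6 FPKM in NP and 409.7 FPKM in Control, and most members have bars that overlap between the libraries.

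Slc25a47, a carrier known mainly from liver, was at 408.6 FPKM (390 to 428) in NP and 409.7 FPKM (391 to 429) in Control. It lies on chromosome 12 from 110089339 to 110095024 in the mm9 build of the files. It made up 23.0% of the family sum in NP and 23.0% in Control, and its level exceeded that of 98.2% of kept genes in NP and 98.4% in Control. No other member's interval reached it. Among neighbours in the order of levels, 22 of 31 pairs in NP and 24 of 31 in Control had overlapping intervals, so the order is firm only between a few blocks.

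Across the family the difference between the libraries was small. On the scale of log2((NP + 1)/(Control + 1)) of FPKM, the median of the 32 members was -0.02, against -0.03 for all 10544 kept genes, with 14 members higher and 18 lower in NP. With NP scaled so that the median ratio of all kept genes was level (a factor of 1.02), 16 were higher and 16 lower. Slc25a34 was the 1 member at least 1.5-fold higher in NP and Slc25a26 the 1 member at least 1.5-fold lower, together 6.25% of members against a background of 8.92% of all kept genes. By direction the background was 3.59% higher and 5.33% lower. By plain FPKM, without the added 1, Slc25a48 joined Slc25a26 as at least 1.5-fold lower, against backgrounds of 5.29% higher and 7.85% lower. These shares are near those of all genes.

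Intervals of the 2 libraries did not overlap for 7 of 32 members, against 17.3% of all kept genes. The NP interval lay above that of Control for 2 members, Slc25a25 and Slc25a34 (background 7.72%). It lay below for 5 members, Slc25a26, Slc25a32, Slc25a33, Slc25a42 and Slc25a48 (background 9.58%). Of the 18 members below 20 FPKM on average, 13 were lower in NP and 5 higher (12 and 6 after the scaling), with a median log2 ratio of -0.16 against -0.04 for all kept genes at that level. In this range the NP interval lay above for 1 (background 5.44%) and below for 3 (background 8.28%), and 2 were past 1.5-fold (background 10.01%). Of the 14 members at 20 FPKM or more, 9 were higher and 5 lower (10 and 4 after the scaling), with a median of 0.03 against 0.00. Of these 14, 0 were past 1.5-fold (background 5.96%), 1 had an NP interval above (background 13.9%) and 2 below (background 13.1%). The lower members are also the ones with the widest intervals, with a median upper arm of 18.1% of the value in NP and 19.03% in Control, against 6.30% and 6.38% for members at 20 FPKM or more.

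**Figure D2:**
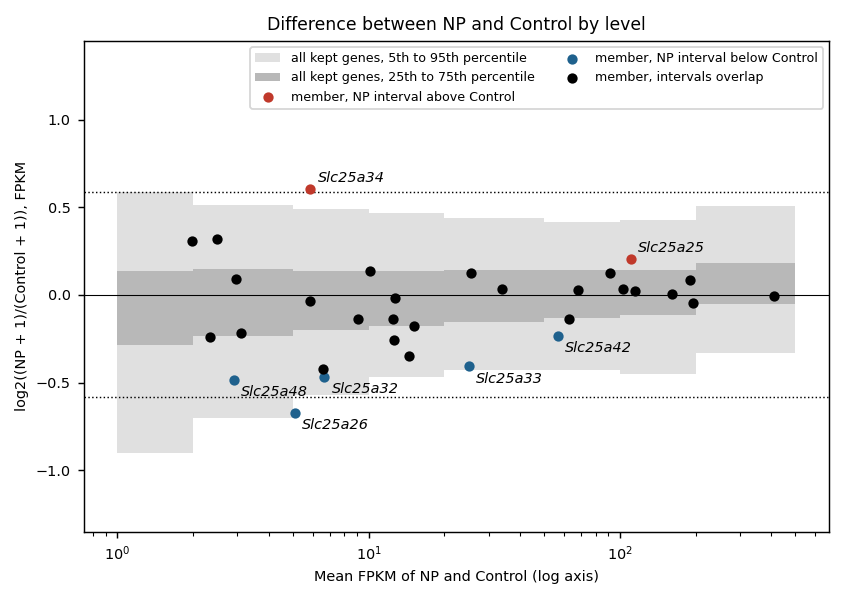
Log2((NP + 1)/(Control + 1)) of FPKM against the mean FPKM of both libraries on a log axis, 1 point per member, over the spread of all kept genes in bins of level (light grey, 5th to 95th percentile; dark grey, 25th to 75th) with the 1.5-fold rule as dotted lines. Slc25a34 at 0.61 and Slc25a26 at -0.67 lie outside the dotted lines and the light band.

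Of the carriers of energy exchange, Slc25a3 and Slc25a5 were nearly level. Slc25a3, which imports the phosphate used by ATP synthase, was at 193 FPKM (182 to 203) in NP and 199 FPKM (188 to 210) in Control. Slc25a5, the ADP/ATP carrier of many tissues including liver, was at 162 FPKM (152 to 172) in NP and 161 FPKM (150 to 171) in Control. Slc25a4, the ADP/ATP carrier typical of heart and skeletal muscle, had a ratio of 0.790. It was at 2.06 FPKM (1.22 to 2.90) in NP and 2.61 FPKM (1.67 to 3.57) in Control. Slc25a31, the testis ADP/ATP carrier, was below the filter, at 0.126 FPKM in NP and 0.212 FPKM in Control. The intervals of all of these overlapped between the libraries, and the 3 members that passed the filter had a median log2 ratio of -0.04. Slc25a4 and Slc25a5 are close paralogs, and the sources used here do not say how reads shared by similar copies were counted.

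The ATP-Mg/phosphate carriers, which adjust the matrix pool of adenine nucleotides and respond to calcium, were measured as Slc25a25 and Slc25a23. Slc25a25 was at 119 FPKM (113 to 125) in NP and 103 FPKM (97.3 to 109) in Control, a ratio of 1.15 with separate intervals. It lies on chromosome 2 from 32270007 to 32306965. Slc25a23 was at 68.7 FPKM in NP and 67.3 FPKM in Control, with overlapping intervals. Slc25a24 was below the filter, at 0.308 FPKM in NP and 0.604 FPKM in Control, and Slc25a41 was listed at 0 in both.

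Slc25a25 was carried by transcripts from separate starts, whose promoters are printed above. The short transcript, with the TGACGTCA match, was at 62.6 FPKM (58.0 to 67.2) in NP and 50.8 FPKM (46.6 to 55.1) in Control, a ratio of 1.23. The long transcript was at 55.0 FPKM (51.2 to 58.8) in NP and 50.7 FPKM (47.0 to 54.4) in Control, a ratio of 1.09 with overlapping intervals. The short transcript thus held 52.7% of the gene's FPKM in NP and 49.4% in Control. Whether the transcripts differ in their response cannot be tested with 1 library per group. The RefSeq starts lie 61 bases (short) and 25 bases (long) from the starts that GENCODE gives these transcripts.

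In the group drawn up by hand for carriers of citrate, dicarboxylates and oxo acids, Slc25a34 differed most, though its place there does not rest on a known substrate. Slc25a34, which has no settled substrate, was at 7.28 FPKM (6.16 to 8.39) in NP and 4.44 FPKM (3.52 to 5.36) in Control, a ratio of 1.64 and the highest among the 32 members. It lies on chromosome 4 from 141174739 to 141179736. Slc25a1, which exports citrate for lipogenesis, was at 116 FPKM (108 to 124) in NP and 114 FPKM (106 to 123) in Control. Slc25a11, the 2-oxoglutarate carrier of the malate-aspartate shuttle, was at 34.3 FPKM in NP and 33.6 FPKM in Control, and its span overlaps the expressed gene Rnf167. Slc25a10, the dicarboxylate carrier, was at 59.4 FPKM (55.2 to 63.6) in NP and 65.5 FPKM (60.3 to 70.6) in Control. Slc25a21, which carries oxoadipate from lysine and tryptophan breakdown, was at 5.77 FPKM in NP and 5.92 FPKM in Control. The median of the 5 members of this group was 0.02, and the intervals of all but Slc25a34 overlapped.

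Carriers of amino acids, carnitine and related substrates went both ways, with 4 of 8 higher and 4 lower in NP (5 and 3 after the scaling). The 8 include Slc25a47, described above and placed in this group by hand. It was 1 of the 4 lower, at a ratio of 0.997, and had a log2 ratio of 0.02 after the scaling. Slc25a20, which brings acylcarnitines in for fatty acid oxidation, was at 95.6 FPKM (89.5 to 102) in NP and 87.7 FPKM (81.7 to 93.7) in Control. Slc25a22, a glutamate carrier, was at 104 FPKM in NP and 102 FPKM in Control, and Slc25a12, the aspartate/glutamate carrier typical of muscle and brain, was at 3.09 FPKM in NP and 2.84 FPKM in Control. Slc25a44, a carrier of branched-chain amino acids, was at 11.9 FPKM in NP and 13.1 FPKM in Control, and Slc25a29, a carrier of basic amino acids, was at 2.87 FPKM in NP and 2.11 FPKM in Control. None of these had separate intervals.

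Slc25a48, linked to mitochondrial choline uptake, was at 2.26 FPKM (1.74 to 2.78) in NP and 3.56 FPKM (2.86 to 4.26) in Control, 1.57-fold lower in NP, with narrowly separate intervals. It lies on chromosome 13 from 56539716 to 56575600. Slc25a45 was at 5.45 FPKM (4.38 to 6.51) in NP and 7.65 FPKM (6.29 to 9.01) in Control, 1.41-fold lower in NP with overlapping intervals. Slc25a18, a glutamate carrier, and Slc25a2, an ornithine carrier, were below the filter in this group, at 0.0506 and 0.313 FPKM in NP and at 0.0422 and 0.611 FPKM in Control.

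In the group drawn up by hand for other carriers of nucleotides, cofactors and vitamins, most members were lower in NP. Of the 7 measured members, 6 were lower and 1 higher, with a median log2 ratio of -0.26, and for 4 of them the NP interval lay below that of Control. Of all kept genes, 54.3% were lower in NP and 9.58% had an NP interval below that of Control (13.1% at 20 FPKM or more). These are 4 of the 5 such members of the whole family, and the role groups were drawn up by hand with earlier results known, so their share was not tested. The counts were 6 and 1 after the scaling too. Slc25a36, of this group but below the filter, had a ratio of 1.38 with overlapping intervals. Carriers of adenine nucleotides were placed in other groups. Among those past the filter, Slc25a25, Slc25a23 and Slc25a5 had ratios of 1.15, 1.02 and 1.00, and Slc25a4 had one of 0.790. Slc25a26, which imports S-adenosylmethionine for methylation in the matrix, was at 3.69 FPKM (2.79 to 4.597) in NP and 6.49 FPKM (5.20 to 7.77) in Control, 1.76-fold lower in NP. It lies on chromosome 6 from 94450308 to 94554642, where its span overlaps the expressed gene Lrig1. Slc25a32, the folate carrier, was at 5.43 FPKM (4.55 to 6.31) in NP and 7.89 FPKM (6.75 to 9.03) in Control, 1.454-fold lower. Slc25a33, a pyrimidine nucleotide carrier, was at 21.4 FPKM (19.1 to 23.7) in NP and 28.6 FPKM (25.8 to 31.5) in Control, 1.34-fold lower.

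Slc25a42, which imports coenzyme A, was at 52.0 FPKM (48.7 to 55.3) in NP and 61.2 FPKM (57.3 to 65.1) in Control, 1.18-fold lower. Its intervals were separate at a small ratio. Slc25a17, a peroxisomal carrier of cofactors, was at 11.4 FPKM (9.68 to 13.2) in NP and 13.9 FPKM (11.8 to 15.9) in Control. The 1 member past the filter with a log2 ratio above 0 was Slc25a16, whose yeast relative is linked to coenzyme A supply. Slc25a16 was at 26.7 FPKM (24.6 to 28.9) in NP and 24.4 FPKM (22.3 to 26.5) in Control. The intervals of Slc25a16 and of Slc25a17 overlapped.

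**Figure D3:**
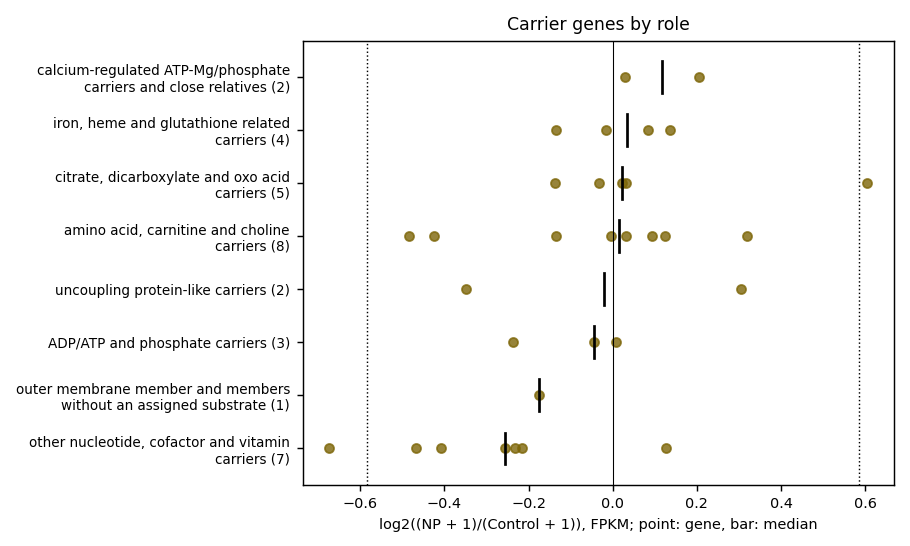
Log2((NP + 1)/(Control + 1)) of FPKM for the members of each role group, 1 point per gene with the group's median as a bar, the number of members in parentheses and the 1.5-fold rule as dotted lines. The group of other nucleotide, cofactor and vitamin carriers has 6 of 7 points below 0 and a median of -0.26.

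Carriers tied to iron, heme and glutathione all had overlapping intervals. Slc25a39, which imports glutathione, was among the highest members, at 195 FPKM (185 to 206) in NP and 184 FPKM (174 to 195) in Control. Its relative Slc25a40 was below the filter, at 0.673 FPKM in NP and 0.961 FPKM in Control. Slc25a28 and Slc25a37, the mitoferrins that import iron, were at 10.7 and 8.56 FPKM in NP and at 9.61 and 9.50 FPKM in Control. Slc25a38, needed for heme synthesis in erythroid cells, was at 12.7 FPKM in NP and 12.9 FPKM in Control. Mitoferrin 1 (Slc25a37) is abundant in red cell precursors, so erythroid markers are given beside it: Alas2 was at 45.6 FPKM in NP and 38.3 FPKM in Control, and Hbb-b1 at 171 FPKM in NP and 227 FPKM in Control. Their part in the values of Slc25a37 was not tested.

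The remaining measured members were Slc25a30, Slc25a14 and Slc25a46. Slc25a30, related to the uncoupling proteins, was at 12.6 FPKM (10.8 to 14.4) in NP and 16.3 FPKM (14.1 to 18.5) in Control, and Slc25a14, of the same branch, was at 2.29 FPKM in NP and 1.66 FPKM in Control. Slc25a46, which acts in the outer membrane in mitochondrial dynamics, was at 14.1 FPKM in NP and 16.1 FPKM in Control. All of these had overlapping intervals. Slc25a14 had the lowest mean inside the threshold of 1 FPKM, 1.98 FPKM, and Slc25a36, a pyrimidine nucleotide carrier at 0.971 FPKM in NP and 0.703 FPKM in Control, the highest outside it. The 10 members below the threshold ran from 0 to 0.971 FPKM in NP and from 0 to 0.961 FPKM in Control, and 0 of them had separate intervals. Besides those named above they were Slc25a27, at 0.535 FPKM in NP and 0.388 FPKM in Control, Slc25a35, at 0.646 FPKM in NP and 0.167 FPKM in Control, and Slc25a43, at 0.00271 FPKM in NP and 0.0923 FPKM in Control.

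Differences between rows of a gene were larger than those of its sum for several carriers. The tables give FPKM per transcript, and types of transcript were taken from GENCODE M21 by transcript identifier. Rows of protein-coding type held 93.5% of the family's FPKM in NP and 91.0% in Control. Retained-intron rows held 3.58% and 4.70%, and rows of the whole gene span 2.04% and 2.40%. The protein-coding rows summed to 1664.5 FPKM in NP and 1621 FPKM in Control. The retained-intron rows summed to 63.7 FPKM in NP and 83.7 FPKM in Control. Of 40 member transcript rows averaging 1 FPKM or more, 4 had an NP interval above that of Control (background 13.1%) and 7 below (background 14.7%).

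In Slc25a10 the sum and the coding transcript pointed in opposite directions. Its coding transcript was at 59.4 FPKM (55.2 to 63.6) in NP and 49.1 FPKM (44.9 to 53.4) in Control, a ratio of 1.21. Its processed transcript, a form without a coding frame, was listed at 0 in NP and was at 16.3 FPKM (13.4 to 19.3) in Control. Over all kept genes, 2.07% of transcript rows averaging 5 FPKM or more were listed at 0 in NP and 1.3% in Control. Rows of kept genes all had an OK status, so the 0 of Slc25a10 was not flagged as failed, though it can still be wrong. The coding and processed rows of Slc25a10 overlap on the genome. Whether the 0 affects the coding ratio of 1.21, and so the coding count below, was not tested.

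Rows also differed within Slc25a1 and Slc25a22. The coding transcript of Slc25a1 was at 83.8 FPKM (77.9 to 89.6) in NP and 70.7 FPKM (65.2 to 76.2) in Control, a ratio of 1.19, while its retained-intron row was at 32.4 FPKM (26.9 to 37.9) in NP and 43.7 FPKM (37.1 to 50.3) in Control. The coding intervals were separate and those of the retained-intron row overlapped. The retained-intron row of Slc25a22 was at 18.5 FPKM (16.6 to 20.5) in NP and 27.7 FPKM (25.2 to 30.3) in Control, and its coding transcript was at 80.1 FPKM in NP and 73.8 FPKM in Control with overlapping intervals. The gene-span row of Slc25a22 was at 5.30 FPKM in NP and listed at 0 in Control.

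In Slc25a42 the difference lay in 1 of its coding transcripts, which was at 22.3 FPKM (20.04 to 24.6) in NP and 33.9 FPKM (30.9 to 36.9) in Control. The other coding transcript, at 16.5 FPKM in NP and 14.6 FPKM in Control, and the retained-intron row, at 12.2 FPKM in NP and 11.7 FPKM in Control, had overlapping intervals. For Slc25a47 the coding transcript was at 385 FPKM (366 to 404) in NP and 375 FPKM (356 to 394) in Control, and the gene-span row, which can take intronic reads, at 23.6 FPKM in NP and 35.0 FPKM in Control. Counted over coding transcripts alone, a choice made after the values were seen, the NP interval lay above that of Control for 4 of 30 members, Slc25a1, Slc25a10, Slc25a25 and Slc25a34 (background 9.13% of 8623 genes). It lay below for 5 (background 10.2%), again Slc25a26, Slc25a32, Slc25a33, Slc25a42 and Slc25a48.

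**Figure D4:**
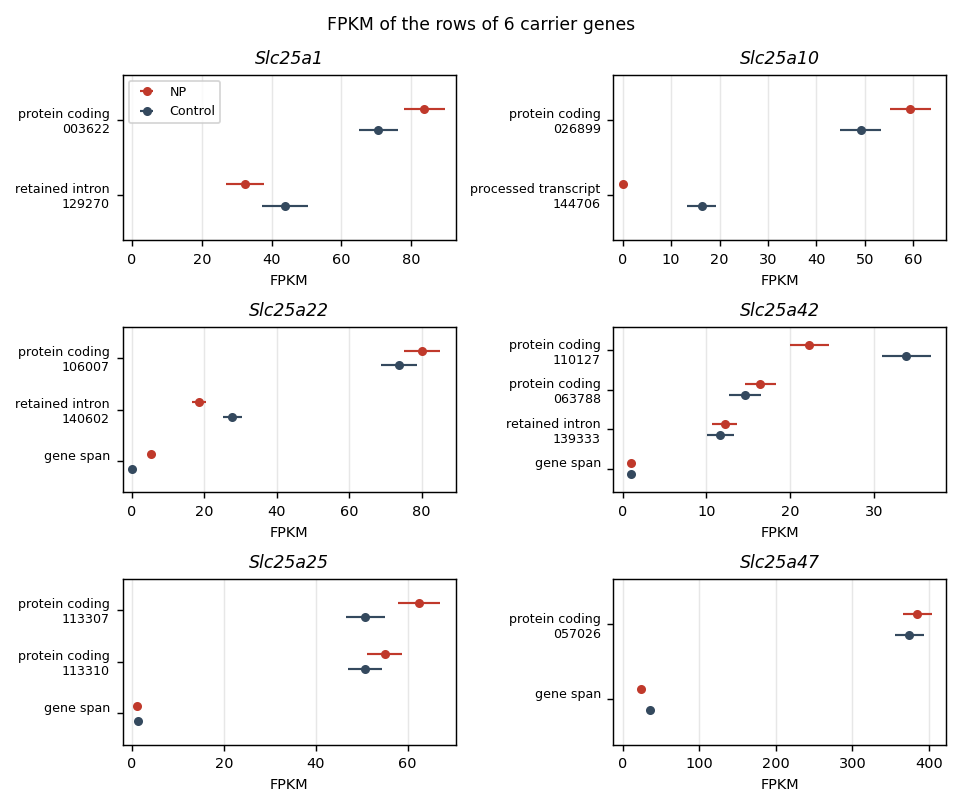
FPKM with the 95% Cufflinks interval of each row with a mean of at least 0.25 FPKM in 6 carrier genes, NP above Control in each row, with rows named by type and by the last digits of the transcript identifier. The processed transcript of Slc25a10 is listed at 0 in NP and is at 16.3 FPKM in Control, while the coding transcripts of Slc25a1 and Slc25a10 are higher in NP.

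Relatives of the family under other names included Mtch1 at 35.3 FPKM in NP and 30.2 FPKM in Control, Mtch2 at 80.6 FPKM in NP and 85.7 FPKM in Control and the uncoupling protein gene Ucp2 at 6.03 FPKM in NP and 6.45 FPKM in Control. Mcart1, which encodes a carrier now linked to NAD, was at 17.4 FPKM in NP and 20.2 FPKM in Control. All 4 had overlapping intervals and were within 1.5-fold, and Ucp1 was listed at 0 in both libraries.

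Of 19 measured genes of other mitochondrial solute transport, 0 were 1.5-fold higher or lower, 15 were below and 4 above their Control value, and the median log2 ratio was -0.08. Over all kept genes 8.92% were past 1.5-fold and 54.3% lower in NP. The NP interval lay below that of Control for Slc24a6, the sodium/calcium exchanger (24.3 FPKM in NP, 32.5 FPKM in Control), Vdac3, an outer membrane channel (18.2 FPKM in NP, 23.8 FPKM in Control), and Brp44, a subunit of the pyruvate carrier (215 FPKM in NP, 253 FPKM in Control). It lay above for Abcb8, a mitochondrial ABC transporter, at 8.54 FPKM in NP and 6.33 FPKM in Control. These are 3 intervals below and 1 above among 19 genes, against backgrounds of 9.58% below and 7.72% above. Brp44l, which encodes the other subunit of the pyruvate carrier, was at 45.8 FPKM in NP and 41.6 FPKM in Control. Its ratio was 1.10 and its intervals overlapped.

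Of 14 regulators of mitochondrial biogenesis, 0 were 1.5-fold higher and 1 was lower (7.14%, against 8.92% of all kept genes), with a median of 0.06. That gene was Ppargc1b, a coactivator, at 1.04 FPKM (0.709 to 1.37) in NP and 3.32 FPKM (2.68 to 3.97) in Control. The NP interval of Ppargc1b lay below that of Control (background 9.58%). Its relative Ppargc1a was at 1.34 FPKM in NP and 1.27 FPKM in Control. Of the 14, 10 were above and 4 below their Control value, where 54.3% of all kept genes were lower in NP. Peo1, the mitochondrial helicase, was at 12.4 FPKM in NP and 9.72 FPKM in Control, and Esrra, a nuclear receptor, at 25.04 FPKM in NP and 20.4 FPKM in Control, both with an NP interval above that of Control (background 7.72%).

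Other families are given for scale, and no difference between families was tested. Respiratory chain and ATP synthase genes, taken by name, had 5 of 84 past 1.5-fold (5.95%, against 8.92% of all kept genes). All 5 were lower in NP (background 5.33%), and the median of the 84 was 0.00. Mitochondrial ribosomal protein genes had 1 of 76 higher and 1 lower (2.63% in all), with a median of 0.09. The other solute carrier (Slc) families had 6 of 143 higher and 5 lower (7.69% in all), with a median of 0.03.

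Of the libraries as a whole, read coverage per unit of FPKM stood at 2.93 in NP and 2.29 in Control, 1.28 times as deep in NP. Mapped fragment totals were not used here. Of 6 hepatocyte markers, Alb (30741 FPKM in NP and 21659.7 FPKM in Control), Apoa1 and Ttr had an NP interval above that of Control, while Serpina1a, Cps1 and Pck1 had ratios of 1.01, 1.03 and 0.978 with overlapping intervals. All measured kidney and skeletal muscle markers were listed at 0. Summed sinusoidal endothelial markers were at 49.2 FPKM in NP and 68.8 FPKM in Control (5 of 5 lower in NP, where 54.3% of all kept genes were lower). Kupffer cell and macrophage markers were at 10.7 FPKM in NP and 22.9 FPKM in Control (4 of 4 lower). Stellate cell markers were at 71.6 FPKM in NP and 88.1 FPKM in Control (4 of 4 lower). Clec4g, Clec4f and Dcn made up most of these sums in both libraries. The NP interval lay below that of Control for Clec4g, Kdr, Clec4f, Dcn, Lrat and Pdgfrb (background 9.58%). Intervals overlapped for Stab2, Lyve1, Pecam1, Cd68, Csf1r, Reln and, below the filter, Emr1. Other marker lists did not go 1 way. Cholangiocyte markers were at 2.75 FPKM in NP and 2.53 FPKM in Control (1 of 4 lower). Lymphoid markers were at 11.9 FPKM in NP and 19.2 FPKM in Control (2 of 4 lower), with the NP interval of Cd74 below. Erythroid markers had 1 of 3 lower and 1 listed at 0 in both libraries. Adipocyte markers had 0 of 2 lower, at levels below the filter. The part of these markers in the differences of the carriers was not tested, and in bulk tissue fewer cells of a type and less RNA per cell cannot be told apart.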

How the data were processed

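Liver RNA-seq was deposited as 1 table per group. Per the file headers, the authors' values are FPKM with a 95% interval for each transcript row or gene-span row, in the isoform format of Cufflinks, and read coverage, a signal not scaled to depth. Per the submitters' processing notes, TopHat2 2.1.0, Cufflinks 2.2.1.0 and the mm9 build were used, with no settings given. Rows of a gene were summed and interval arms combined in quadrature, which leaves out covariance between rows. A row at 0 was given no width. Kept genes had a mean of at least 1 FPKM, an OK status in all rows, a row of at least 300 nt and no small RNA name. Differences were log2((NP + 1)/(Control + 1)), which understates those of low genes, with a fixed rule of 1.5-fold. The row sums were checked on a small made table. The fold rule was checked on simulated data with changes only in genes averaging 5 FPKM or more. It was not checked for changes in lower genes. Members past the filter were named, as were extremes of the other lists, except items that are not reported here and enter counts and sums only. Members, role groups and lists were chosen with earlier results of these data known. Python 3.11.15, pandas 2.3.3, numpy 2.4.6 and matplotlib 3.10.9 were used.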

Additional observations from a re-analysis of the deposited data

How the results depend on the processing

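The count of members past the fold rule is small and moves with the setting. The 1 member lower in NP became 2 with a pseudocount of 0.1 or none, 0 with a pseudocount of 5, 0 under a 2-fold rule, 6 under the lowest fold rule tried and 0 without members that overlap another expressed gene, which drops Slc25a26. The 1 member higher in NP became 0 with a pseudocount of 5 and 0 under a 2-fold rule. The count higher in NP stayed at 1 under the lowest fold rule tried. By plain FPKM, 68.75% of members and 69.0% of all kept genes lay within that lowest rule in either direction. For these changed settings, other than no pseudocount, no share of all kept genes by direction was counted. Their counts therefore do not show a lean of the family beyond that of all genes. Members with an NP interval above that of Control were 2 in the report, 1 with interval arms added linearly, which drops Slc25a25 (Slc25a42 was dropped from those below), and 4 over protein-coding rows. The median log2 ratio ran from -0.04 without gene-span rows to 0.02 with the highest row of each gene. It was also above 0 with NP scaled to a median ratio of 0 (0.0021) or to an equal upper quartile (0.0008). With protein-coding rows, 3 of 30 single members moved beyond their interval: Slc25a1 to 0.24, Slc25a10 to 0.27 and Slc25a46 to 0.22. The main transcript of Slc25a46 is not in GENCODE M21, so its value there covers 19.8% of the gene in NP and 14.02% in Control. Versions with protein-coding rows and without overlapping genes were chosen after the data were examined. No paired analysis was possible because each group has 1 library. With 1 library per group no spread between animals is known, and a low member's difference is limited by the width of its interval.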
